A study of Homo sapiens with 12 samples.

Results

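RNA was measured in cells treated for 48 h with 1 µM doxorubicin and in the same cells given the solvent, DMSO, in 3 libraries each. The 6 libraries belong to 12 in the series and were chosen by their labels: cell line HS578T, 1 copy of the short arm of chromosome 17 (17p) knocked out, named 17PKO in the sample titles. HS578T is an established triple-negative breast cancer line with mesenchymal features. The other 6 libraries are of cells labelled 17p-intact, named Cas9 in the titles, in DMSO or in 170 nM doxorubicin for 48 h. They enter the same fit, so their spread bears on the p-values at 1 µM, and they serve to check 17p and to ask where the response at 1 µM differed. In that comparison the labelled genotype and the dose change together and cannot be told apart. All cells were grown, per the labels, in DMEM with fetal bovine serum and antibiotics. The labels do not say how the deletion was made, whether the deleted cells are 1 clone, or whether replicate libraries are separate cultures. The spread behind a p-value may therefore be technical.

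Doxorubicin is an anthracycline. It inserts between DNA bases and traps topoisomerase II on cut DNA, which leaves double-strand breaks. Breaks activate the kinases ATM and ATR and, through them, the transcription factor p53, which induces inhibitors of the cell cycle, DNA repair enzymes and death receptors. In arrested cells a repressor complex called DREAM, built around p107 or p130 and E2F4, keeps genes of DNA replication and mitosis low. DNA in the cytosol can activate STING and through it interferon and NF-kB genes, and an intercalator also hampers the movement of RNA polymerase and the placement of histones.

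Of 60660 gene identifiers counted, 21803 had enough counts to be tested. Values are counts per 1e6 (CPM), relative levels within a library, which for single genes were also scaled between libraries. Total RNA per cell was not measured, and fewer cells of a type and less RNA per cell cannot be told apart. Differences are log2 fold changes of doxorubicin against DMSO with their standard error (SE), from a quasi-likelihood fit in edgeR. A gene is said to rise or fall where its Benjamini-Hochberg adjusted p, over all 21803 genes, was under 0.05.

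The 6 libraries held 66150539 to 92932596 counts. Replicate 2 of the DMSO group stood apart: mitochondrial genes took 6.90% of its counts, against 2.68% to 3.41% in the other 5. In the intact doxorubicin group the share was 5.54%, 3.57% and 3.16%. Deviations from the group mean ran with GC content at Spearman rho -0.44, 0.48 and -0.16 in that group. In the deleted DMSO group rho was 0.35, -0.51 and 0.43. Where leaving out a library moved the count of list members by over 1.5 times, that count is given. A check of chromosome-specific transcripts went against the karyotype recorded for HS578T in 12 of 12 libraries, so the cells are called only what the labels call them. In DMSO the 399 tested genes of 17p had a median log2 difference of -0.12 between the labelled deleted and intact cells, against 0.04 for other genes. That shift is well short of 2-fold, and whether a copy of 17p is missing was not tested. Many mesenchymal markers of the line were abundant, with VIM (vimentin) from 1729, 1952 and 1723 CPM to 995, 1032 and 989.6 CPM. Others were not: COL1A2 had 8 to 28 counts in a library and S100A4 196 to 415. EPCAM, a surface marker of epithelial cells, had 6 to 10 counts in a library. The epithelial keratins KRT8 and KRT18 were abundant, with 20414 to 34990 and 13183 to 19641 counts. The 19 mesenchymal markers summed to 8879 to 9391 CPM in DMSO and 7015 to 7087 CPM in doxorubicin, with 3 higher and 10 lower. The 20 epithelial markers summed to 471 to 682 and 620 to 631 CPM, the 18 blood markers to 7.76 to 15.4 and 20.9 to 23.5 CPM and the 10 endothelial markers to 1.26 to 2.12 and 2.07 to 3.11 CPM. HBB, a globin gene, was at 0 in all 6 libraries. What part other cells had in the results was not tested.

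Doxorubicin at 1 µM changed 30.7% of the genes tested: 3822 rose (17.5%) and 2862 fell (13.1%). Changes of at least 2-fold were more often rises, with 1984 genes (9.1%) against 937 (4.3%). The median over all genes tested was -0.02, against which the medians of lists can be read. The 17.5% and 13.1% serve in the same way for the counts of list members that rose or fell. In 24.6% of the genes tested all doxorubicin libraries lay above all DMSO libraries and in 20.7% all lay below, whether called or not. Of the called genes this held for 3803 that rose and 2761 that fell. For a named gene that was called, separate libraries therefore add little to the call. The largest rises and falls were named only where the libraries did not overlap. Among protein-coding genes 3059 of 14539 rose and 2084 fell.

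The balance of the most abundant RNAs moved as well. The 10 genes with the largest rise in CPM together held 3431 CPM on average in DMSO and 9466 CPM in doxorubicin. They included MDM2, CDKN1A, TYMS, the actin crosslinker FLNC, the splicing factor PRPF8 and the heparan sulfate proteoglycan SDC4. The 10 with the largest fall held 25671 CPM in DMSO and 18226 CPM in doxorubicin. They included the cytoskeletal genes ACTB (log2 -0.33, SE 0.09) and VIM (log2 -0.84, SE 0.09), the chaperones HSPA8 (log2 -1.03, SE 0.11) and HSP90AB1 (log2 -0.54, SE 0.08), the nucleolar gene NPM1 (log2 -0.54, SE 0.12) and the collagen gene COL1A1 (log2 -1.002, SE 0.09).

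**Figure D1:**
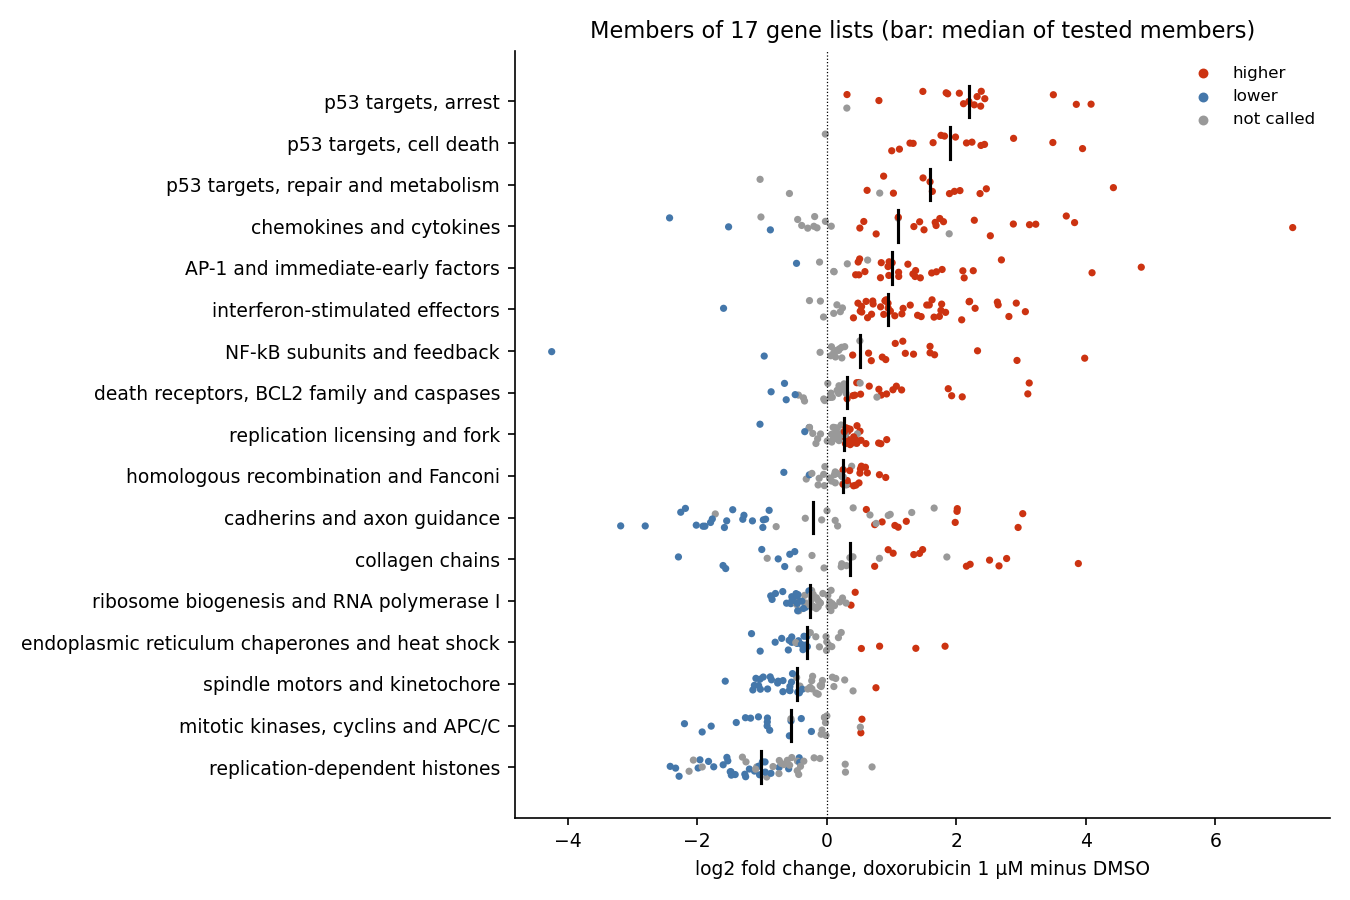
Log2 fold change of each tested member of 17 gene lists, doxorubicin 1 µM against DMSO in cells labelled 17p-deleted; red points were called higher, blue lower and grey not called at an adjusted p of 0.05, and the black bar is the list's median. The p53 target lists lie to the right, with medians of 1.60 to 2.20, and the histone, mitotic and chaperone lists to the left, with medians of -1.01 to -0.30.

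Genes that p53 is known to induce rose almost throughout. All 17 listed arrest genes were tested: 16 rose, 0 fell and 1 did not pass, with a median log2 fold change of 2.20. CDKN1A encodes p21, the inhibitor of cyclin-dependent kinases. It was at 82.8, 50.7 and 84.5 CPM in DMSO and 1297, 1115 and 1282 CPM in doxorubicin (log2 fold change 4.08, SE 0.19). All 3 treated libraries lay far above the DMSO libraries, of which replicate 2 was the lowest. BTG2, an antiproliferative cofactor of mRNA decay, went from 12.8, 12.4 and 13.8 CPM to 179.8, 189.8 and 194 CPM (log2 fold change 3.85, SE 0.09). ZNF79, a zinc finger gene, and CMBL, a hydrolase, had log2 fold changes of 2.28 (SE 0.10) and 1.87 (SE 0.08). None of these 4 overlapped between the treatments. TOB1, a relative of BTG2, was the member that did not pass, at 45.7, 66.96 and 42.1 CPM in DMSO and 62.1, 62.05 and 67.9 CPM in doxorubicin (log2 fold change 0.31, SE 0.16, edgeR adjusted p = 0.159). Without replicate 2 of the DMSO group, which held the most, its log2 fold change was 0.53 and it passed (edgeR adjusted p = 0.00362).

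Targets that act in cell death rose in 15 of 16 tested, with a median of 1.90. FAS encodes the death receptor that binds FASLG. It was at 16.1, 18.1 and 14.3 CPM in DMSO and 78.4, 74.9 and 76.3 CPM in doxorubicin (log2 fold change 2.24, SE 0.12). The receptors of the ligand TRAIL rose as well: TNFRSF10A went from 7.36, 7.41 and 7.91 CPM to 36.7, 42.7 and 38.8 CPM and TNFRSF10B from 88.8, 66.99 and 93.7 CPM to 382, 357 and 374 CPM. In all 3 receptors every treated library was above every DMSO library, by 2.16 to 2.38 on the log2 scale.

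Targets in repair and metabolism rose in 12 of 15, with a median of 1.60. RRM2B, the ribonucleotide reductase subunit that supplies nucleotides outside S phase, went from 46.4, 49.8 and 40.4 CPM to 244, 223 and 238 CPM. DDB2, which finds ultraviolet lesions, went from 44.9, 40.3 and 48.7 CPM to 165, 181 and 179 CPM and POLH, a polymerase that copies past lesions, from 69.8, 71.1 and 68.5 CPM to 211, 216 and 222 CPM. DRAM1, a lysosomal protein tied to autophagy, had a log2 fold change of 1.49 (SE 0.08). The most abundant members that did not pass were ALDH4A1, a proline pathway enzyme (log2 0.82, SE 0.30), and SCO2, which helps build cytochrome oxidase (log2 -0.58, SE 0.23). Without replicate 2 of the DMSO group SCO2 passed, with a log2 fold change of -0.78 (edgeR adjusted p = 0.0128), as it did without replicate 2 of the intact doxorubicin group (log2 -0.58, edgeR adjusted p = 0.0166). ALDH4A1 passed without replicate 1 of DMSO (log2 1.02, edgeR adjusted p = 0.0445), without replicate 3 of it (log2 1.04, edgeR adjusted p = 0.0355) and without replicate 1 of intact doxorubicin (log2 0.81, edgeR adjusted p = 0.043).

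The feedback list, of genes tied to the control of p53, was split. 4 of 9 rose and 0 fell, with a median of 0.17, while the list's summed level went from 622 to 2880 CPM on average. Most of that was MDM2, the ubiquitin ligase of p53 (ENSG00000135679.25, chromosome 12, 68808176 to 68850686, hg38). It was at 187, 230.4 and 176 CPM in DMSO and 2131, 2114 and 2162 CPM in doxorubicin (log2 fold change 3.43, SE 0.15) and was among the 10 largest gains of RNA share. PPM1D, the phosphatase that switches off damage signals, went from 26.2, 32.5 and 22.1 CPM to 101.8, 112 and 106 CPM. The kinase PLK3 and the cyclin CCNG1 rose by 2.05 log2 units and 0.81 log2 units. The ubiquitin ligases COP1 (log2 0.05, SE 0.08) and WSB1 (log2 0.08, SE 0.13) did not pass, and their libraries overlapped.

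**Figure D2:**
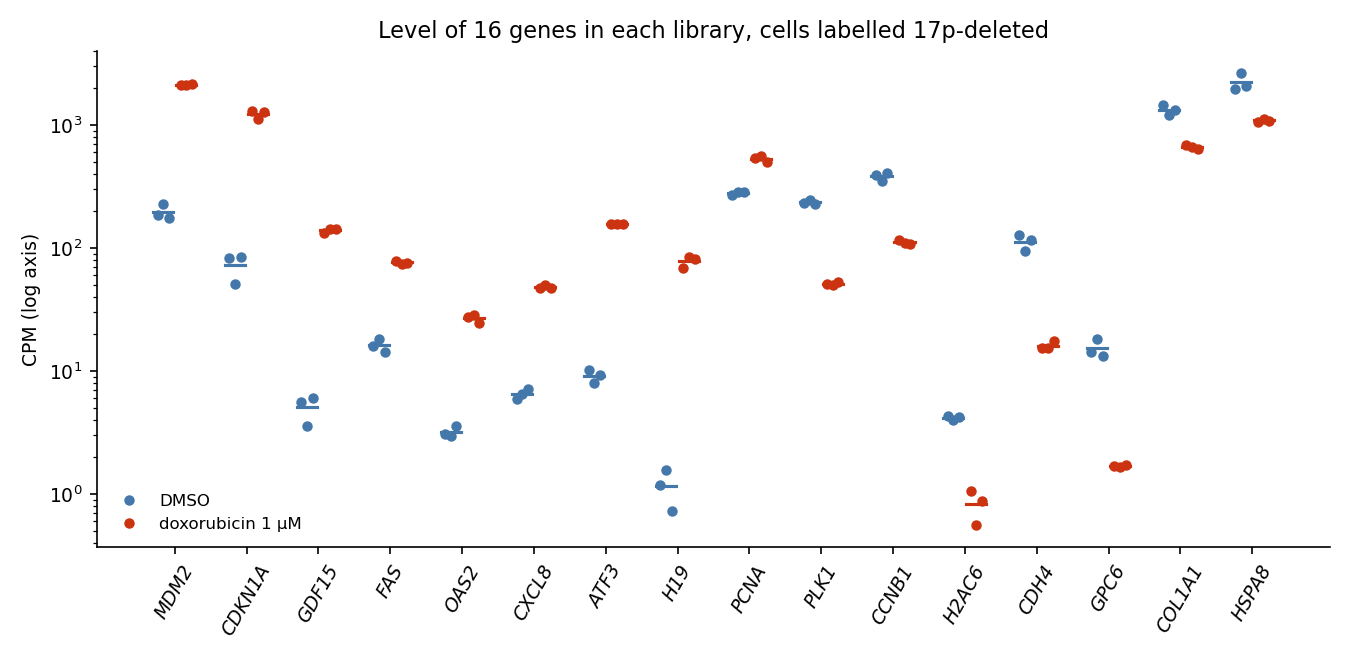
CPM of 16 named genes in each of the 6 libraries on a log axis; blue points are DMSO, red points doxorubicin 1 µM, and the line is the group mean. The treated and untreated libraries of each gene do not overlap, with the 3 doxorubicin libraries of MDM2 between 2114 and 2162 CPM.

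Genes of mitosis fell while many genes of DNA replication did not. Of the mitotic kinases, cyclins and subunits of the anaphase-promoting complex (APC/C), 2 of 26 tested members rose, 15 fell and 9 did not pass, with a median log2 fold change of -0.55. Of spindle motors and kinetochore genes, 1 of 42 tested members rose, 23 fell and 18 did not pass, with a median log2 fold change of -0.46. Of replication licensing and fork genes, 22 of 49 tested members rose, 3 fell and 24 did not pass, with a median log2 fold change of 0.27. The count of replication genes that rose depended on 1 library: it was 12 without replicate 2 of the doxorubicin group. The number that fell was 1 without replicate 2 or 3 of that group and 5 without replicate 2 of the intact doxorubicin group.

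PLK1, the kinase that drives entry into and exit from mitosis, was at 235, 246 and 228 CPM in DMSO and 50.98, 50.2 and 53.5 CPM in doxorubicin (log2 fold change -2.20, SE 0.08). CCNB1, the cyclin that activates CDK1 in mitosis, went from 396, 351 and 406 CPM to 117, 109 and 109 CPM (log2 fold change -1.78, SE 0.10). AURKA, the centrosome kinase, went from 226, 245 and 235 CPM to 61.7, 62.5 and 62.1 CPM, and BUB1, a checkpoint kinase, from 241, 298 and 245 CPM to 115, 113 and 119 CPM. Each treated library was below each DMSO library in all 4. CDK1 itself did not pass: it was at 394, 461 and 388 CPM in DMSO and 401, 384 and 399 CPM in doxorubicin, and these values overlapped (log2 fold change -0.07, SE 0.09, edgeR adjusted p = 0.599). MASTL, the kinase that restrains the phosphatase opposing CDK1, and MYBL2, a transcription factor of the activating form of the DREAM core, rose, with log2 fold changes of 0.54 (SE 0.12) and 0.53 (SE 0.08). With the trend with GC content removed the log2 fold change of MYBL2 was 0.31 and it did not pass (edgeR adjusted p = 0.0667).

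Among spindle genes the lowest p belonged to KIF18A (log2 -1.12, SE 0.12) and KIF20A (log2 -0.75, SE 0.08), kinesins of chromosome alignment and cytokinesis, DLGAP5 (log2 -1.05, SE 0.12), which bundles spindle fibres, and RACGAP1 (log2 -0.68, SE 0.08), which places the cleavage furrow. CENPU, a centromere protein, was the 1 member that rose (log2 0.76, SE 0.11). CKAP5, which lengthens microtubules, was among the most abundant and did not pass, at 600.1, 706 and 566 CPM in DMSO and 524, 534 and 539.6 CPM in doxorubicin (log2 fold change -0.23, SE 0.10). It passed without replicate 2 of the intact doxorubicin group (log2 -0.23, edgeR adjusted p = 0.0374).

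Cell cycle genes of the mitotic phase are known for a promoter element called CHR, to which the DREAM and MYBL2 complexes bind, and replication genes for E2F sites. RefSeq promoter windows of GRCh38.p14, from 250 bases before to 50 after the first listed start, were given for 13143 of the genes tested. For 7134 of them the bases after the start lay within the first 60 of a GENCODE 29 transcript of that symbol, and the counts do not show which start was used. The CHR letters TTTGAA, on either strand, were in 27 of 38 windows of spindle genes (71.1%), 7 of 19 of mitotic kinases (36.8%) and 1 of 43 of replication genes, against 10% of all windows. The E2F letters TTTCCCGC or TTTGGCGC were in 16 of 43 replication windows (37.2%), 0 of 19 of mitotic kinases and 3.42% of all. Within the mitotic lists the CHR letters were in 22 of 32 windows of genes that fell and 12 of 25 of those that did not. Within the replication list the E2F letters were in 8 of 19 windows of genes that rose and 8 of 24 of the others. Such matches are a description of these windows and show no binding.

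The stretches below show how the CHR letters, in capitals, sit before the start of 3 genes that fell and of CKAP5, which did not pass. They lie at chr16:23678825-23678888, plus strand (PLK1), chr11:28108157-28108201, minus strand (KIF18A), chr14:55191654-55191758, minus strand (DLGAP5) and chr11:46846313-46846388, minus strand (CKAP5), and each is written 5′ to 3′ on the gene's strand. DLGAP5 holds the letters on both strands, and CKAP5 on the opposite one.
PLK1: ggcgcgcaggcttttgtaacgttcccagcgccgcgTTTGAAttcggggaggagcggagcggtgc
KIF18A: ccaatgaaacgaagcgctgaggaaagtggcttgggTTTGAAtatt
DLGAP5: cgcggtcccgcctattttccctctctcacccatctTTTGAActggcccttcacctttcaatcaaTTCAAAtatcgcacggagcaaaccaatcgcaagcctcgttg
CKAP5: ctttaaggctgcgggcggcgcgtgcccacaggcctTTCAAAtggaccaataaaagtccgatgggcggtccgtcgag

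For replication the same is shown with the E2F letters in capitals, for PCNA and LIG1, which rose, and for MCM3, which did not pass. The stretches are chr20:5126639-5126716, minus strand (PCNA), chr19:48170416-48170493, minus strand (LIG1) and chr6:52284874-52284951, minus strand (MCM3).
PCNA: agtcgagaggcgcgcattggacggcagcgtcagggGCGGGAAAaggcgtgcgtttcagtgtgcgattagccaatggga
LIG1: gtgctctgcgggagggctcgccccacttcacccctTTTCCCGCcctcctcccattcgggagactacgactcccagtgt
MCM3: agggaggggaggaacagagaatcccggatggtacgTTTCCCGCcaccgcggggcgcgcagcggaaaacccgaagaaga

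**Figure D3:**
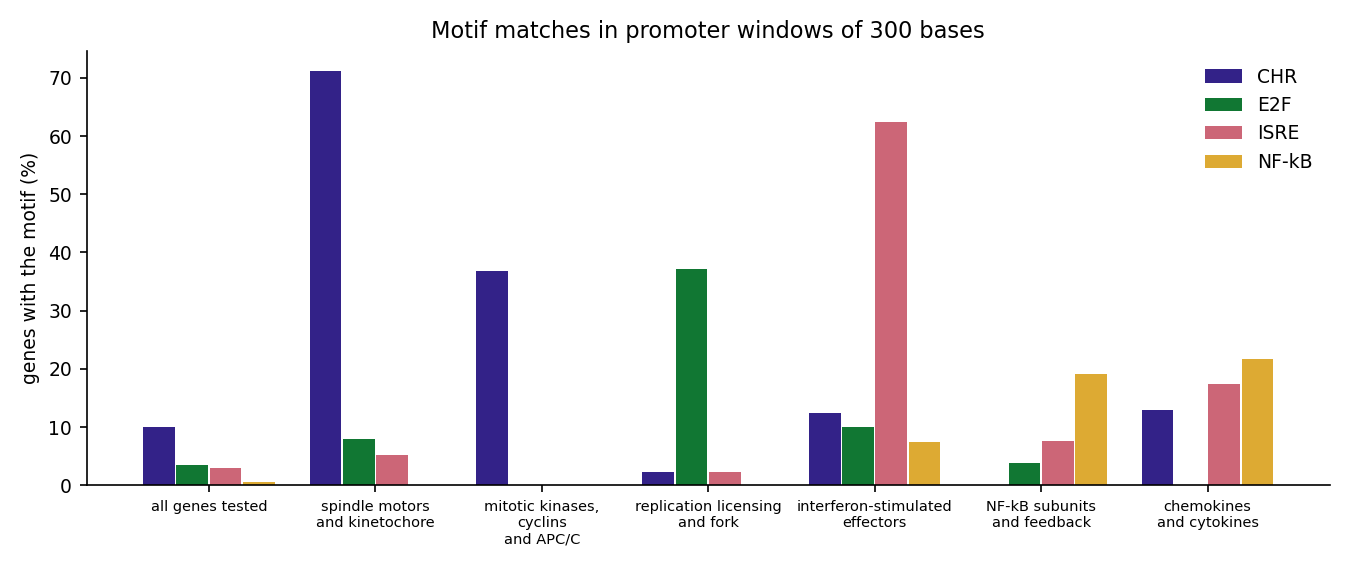
Share of genes of each list, in %, whose RefSeq window of 300 bases holds the CHR, E2F, ISRE or NF-kB letters, each shown apart. Matches on either strand count, and only genes with a window enter. The CHR letters were in 71.1% of spindle windows against 10% of all, the E2F letters in 37.2% of replication windows and the ISRE letters in 62.5% of interferon-stimulated windows.

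PCNA, the sliding clamp of the replication fork, was at 269, 284.6 and 286 CPM in DMSO and 540.2, 559.7 and 497 CPM in doxorubicin (log2 fold change 0.93, SE 0.10). LIG1, the ligase that joins Okazaki fragments, went from 103.3, 75.4 and 100.9 CPM to 161, 166 and 161 CPM, and TIMELESS, which protects stalled forks, from 145, 140.2 and 144 CPM to 213, 221 and 219 CPM. None of the 3 overlapped between treatments. MCM3, a subunit of the replicative helicase, was at 279, 266 and 275 CPM in DMSO and 312, 314 and 292 CPM in doxorubicin and did not pass (log2 fold change 0.16, SE 0.07), although its treated libraries were the higher ones. DBF4, which activates the kinase CDC7 at origins, fell from 65.1, 87.8 and 65.4 CPM to 34.1, 37.4 and 35.4 CPM (log2 fold change -1.03, SE 0.14).

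Around the G1/S switch 10 of 28 genes rose and 6 fell. E2F7 and E2F8, the repressing members of the E2F family, had log2 fold changes of 1.84 (SE 0.12) and 0.79 (SE 0.13), and E2F1, an activating member, one of 0.73 (SE 0.17). RBL2, which encodes p130, rose by 0.63 log2 units, and the inhibitor CDKN2B of CDK4 and CDK6 by 1.27 log2 units. Another inhibitor of these kinases, CDKN2C, fell by 0.51 log2 units, as did SKP2, a ligase subunit that targets p27 for decay, by 0.56 log2 units. The G1 cyclin CCNE1 went from 9.15, 9.62 and 11.03 CPM to 15.7, 18.04 and 17.2 CPM, while CCND1 was at 127, 113 and 132 CPM in DMSO and 109, 98.4 and 108 CPM in doxorubicin and did not pass (log2 fold change -0.24, SE 0.09, edgeR adjusted p = 0.062). Without replicate 2 of the DMSO group CCND1 passed, with a log2 fold change of -0.32 (edgeR adjusted p = 0.0162).

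The enzymes of nucleotide supply were divided. 9 of 28 rose and 7 fell. TYMS, thymidylate synthase, went from 219, 219.7 and 219.9 CPM to 480.3, 495 and 463 CPM and RRM1, the large subunit of ribonucleotide reductase, from 330.1, 397 and 326 CPM to 560.3, 580.1 and 560.2 CPM. The purine synthesis enzymes PAICS (log2 -0.55, SE 0.08) and GART (log2 -0.38, SE 0.09) fell.

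Among the topoisomerases, TOP2A, the form of proliferating cells that doxorubicin traps, was at 1079.6, 1289 and 1054 CPM in DMSO and 758, 712 and 736 CPM in doxorubicin (log2 fold change -0.63, SE 0.09). TOP2B, the form present throughout the cycle, was at 339, 450.1 and 327 CPM in DMSO and 269, 292 and 279 CPM in doxorubicin (log2 fold change -0.41, SE 0.14). It no longer passed without replicate 2 of the DMSO group, its highest library (log2 -0.26, edgeR adjusted p = 0.105). Nor did it pass without any 1 of the 3 doxorubicin libraries, for example replicate 1 (log2 -0.38, edgeR adjusted p = 0.11), or without replicate 1 (log2 -0.41, edgeR adjusted p = 0.0524) or 3 (log2 -0.41, edgeR adjusted p = 0.0512) of the intact DMSO group. TOP1 did not pass (log2 -0.11, SE 0.15). Of 23 genes of chromosome condensation and cohesion 4 fell and 1 rose, TOP2A among the former along with SGO2, which guards centromeric cohesion (log2 -1.09, SE 0.17), and the condensin subunit NCAPD2 (log2 -0.37, SE 0.09). The number of this list that rose was 0 without replicate 1 or without replicate 3 of DMSO.

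Replication-dependent histone genes fell where they changed. Of 58 listed 54 were tested, 28 fell and 26 did not pass, with a median of -1.01. Their levels were low, 98.5 CPM in DMSO and 52.2 CPM in doxorubicin summed over the list. Mature histone mRNAs have no poly(A) tail, and whether the libraries selected such tails is not given in the sources used here. The genes are near-identical, so single members are uncertain. H2AC6 was at 4.32, 4.02 and 4.23 CPM in DMSO and 1.06, 0.565 and 0.879 CPM in doxorubicin (log2 fold change -2.33, SE 0.19) and H3C8 at 6.23, 5.28 and 6.54 CPM in DMSO and 1.91, 1.67 and 1.08 CPM in doxorubicin. H2BC5 and H2BC12 had log2 fold changes of -1.26 (SE 0.15) and -0.95 (SE 0.11). All 4 were lower in every treated library, while the linker histone H1-4 (log2 -0.19, SE 0.20) overlapped and did not pass. The windows of this list carried a TATA box (TATAAA on either strand) in 33 of 49 and the CCAAT letters in 42 of 49, against 6.43% and 36.3% of all windows. The TATA box, in capitals, is shown for H2AC6 (chr6:26124106-26124171, plus strand) and H2BC5 (chr6:26158058-26158120, plus strand).
H2AC6: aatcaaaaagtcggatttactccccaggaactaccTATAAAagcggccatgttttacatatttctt
H2BC5: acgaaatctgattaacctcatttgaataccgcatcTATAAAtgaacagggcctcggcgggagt

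Repair genes outside the p53 list were counted by pathway. For homologous recombination and the Fanconi pathway, 15 of 37 rose and 2 fell (median 0.25). The number that fell was 1 when any 1 library was left out other than replicates 2 and 3 of deleted DMSO and replicate 2 of intact doxorubicin. RAD52, an annealing factor, went from 9.80, 11.1 and 11.1 CPM to 19.2, 21.2 and 19.8 CPM. FANCI, which is ubiquitinated with FANCD2 at crosslinks, rose by 0.50 log2 units, and FANCF, of the ligase that does so, fell by 0.66 log2 units. Of 27 genes of end joining and damage signalling 3 rose and 2 fell, shares below those over all genes. PRKDC, the DNA-dependent kinase of end joining, was at 674, 582 and 543 CPM in DMSO and 614, 594 and 608 CPM in doxorubicin (log2 fold change 0.01, SE 0.14), with overlap. Nucleotide and base excision and translesion genes had 5 of 31 higher and 4 lower, shares below those over all genes. Those counts were 1 higher and 2 lower without replicate 2 of the doxorubicin group, 2 and 2 without replicate 3 of it, and 2 and 2 without replicate 3 of the DMSO group. The number higher was 3 without replicate 1 of either group. ERCC2, a helicase of nucleotide excision, fell from 98.2, 67.3 and 96.1 CPM to 52.8, 49.2 and 52.9 CPM.

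Interferon-stimulated genes rose as a group. Of 50 listed 49 were tested; 41 rose, 1 fell and 7 did not pass, with a median of 0.95 and a summed level of 1758 CPM in DMSO and 2961 CPM in doxorubicin. OAS2, an enzyme that makes the signal for RNA decay on sensing double-stranded RNA, was at 3.08, 2.96 and 3.55 CPM in DMSO and 27.4, 28.5 and 24.5 CPM in doxorubicin (log2 fold change 3.07, SE 0.11). OAS1, of the same family, went from 2.58, 2.20 and 3.51 CPM to 17.6, 18.05 and 16.4 CPM. The antiviral GTPases MX1 and MX2 went from 21.05, 20.8 and 19.5 CPM to 85.8, 93.9 and 80.6 CPM and from 3.15, 3.43 and 3.13 CPM to 22.5, 23.4 and 22.5 CPM. Treated and untreated libraries were apart in all 4. GBP2, a guanylate-binding protein, was the member that fell, at 1.15, 1.53 and 1.14 CPM in DMSO and 0.537, 0.418 and 0.318 CPM in doxorubicin, a low level (log2 fold change -1.59, SE 0.23), and 2 members fell without replicate 2 of the DMSO group. The kinase EIF2AK2, which halts translation on viral RNA, and RNF213, a large ubiquitin ligase, were abundant and did not pass (log2 0.21, SE 0.18 and log2 0.16, SE 0.16).

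Upstream of them, 16 of 33 tested interferons, receptors, STAT and IRF factors and sensors rose and 0 fell. The number that fell was 3 without replicate 2 of the DMSO group and 2 with the trend with GC content removed. IRF1, a factor induced by interferon gamma, went from 12.3, 11.9 and 13.9 CPM to 51.5, 52.8 and 51.4 CPM, and STAT3, the factor of the IL6 family of cytokines, from 169.6, 150.5 and 167 CPM to 330.1, 340.2 and 331 CPM. STING1, the adaptor of cytosolic DNA sensing, went from 37.9, 31.8 and 43.5 CPM to 106, 105 and 111 CPM. All treated libraries were above all DMSO libraries in these 3. The kinase TBK1, which acts after STING, had a log2 fold change of 0.37 (SE 0.15) and did not pass (edgeR adjusted p = 0.0801). Without replicate 2 of the DMSO group it passed, with a log2 fold change of 0.53 (edgeR adjusted p = 0.00691), as it did without replicate 1 (log2 0.37, edgeR adjusted p = 0.0462) or 2 (log2 0.37, edgeR adjusted p = 0.0171) of intact doxorubicin. JAK1 did not pass (log2 -0.16, SE 0.09). The interferon beta gene, IFNB1, was not tested: it had 0 counts in each DMSO library and 6, 8 and 4 in doxorubicin.

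Antigen presentation on class I molecules was counted next: 13 of 29 rose and 1 fell (median 0.38), with 0 falls without replicate 2 of the doxorubicin group. TAP1, a subunit of the peptide pump, went from 29.4, 16.5 and 29.7 CPM to 92.5, 85.5 and 88.7 CPM, and ERAP2, which trims peptides, from 26.6, 33.1 and 28.9 CPM to 84.9, 87.1 and 90.3 CPM. ULBP1, a stress ligand of the NKG2D receptor of natural killer cells, went from 16.3, 21.9 and 13.1 CPM to 49.3, 57.8 and 52.5 CPM. The chaperone CALR had a log2 fold change of 0.00 (SE 0.08), with overlapping libraries.

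The interferon-stimulated response element (ISRE), searched as GAAA, any 2 bases and GAAA on either strand, was in 25 of 40 windows of the interferon-stimulated list (62.5%) against 2.94% of all windows. It was in 20 of 33 windows of members that rose and in 5 of 7 of the rest. Its letters are in capitals below for ISG15 (chr1:1013349-1013434, plus strand) and TAP1 (chr6:32853788-32853873, minus strand), where matches overlap, and for IFIT3 (chr10:89327806-89327919, plus strand), which has 2 apart. ISG15, a ubiquitin-like modifier, and IFIT3, which binds foreign RNA, were chosen after their values were seen, because their windows hold the element; they had log2 fold changes of 1.84 (SE 0.34) and 1.77 (SE 0.12).
ISG15: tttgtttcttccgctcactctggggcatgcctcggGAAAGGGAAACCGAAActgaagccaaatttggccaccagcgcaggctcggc
IFIT3: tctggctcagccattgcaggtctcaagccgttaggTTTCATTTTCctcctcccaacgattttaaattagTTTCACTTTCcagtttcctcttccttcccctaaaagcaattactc
TAP1: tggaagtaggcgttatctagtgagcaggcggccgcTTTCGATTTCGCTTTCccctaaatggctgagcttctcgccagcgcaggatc

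Inflammatory and immediate-early genes rose too. Of 44 chemokines and cytokines 33 were tested, and 19 rose and 3 fell, with a median of 1.11 and a summed level of 132 CPM in DMSO and 354 CPM in doxorubicin. CXCL8, which draws neutrophils, was at 5.92, 6.53 and 7.19 CPM in DMSO and 47.4, 49.9 and 47.5 CPM in doxorubicin (log2 fold change 2.88, SE 0.10). IL1A, an alarm cytokine released by dying cells, went from 1.29, 1.57 and 1.41 CPM to 17.2, 18.9 and 19.5 CPM and IL1B, its secreted relative, from 7.19, 8.84 and 8.69 CPM to 48.3, 47.2 and 47.1 CPM. CSF1, the growth factor of macrophages, went from 24.01, 21.1 and 25.8 CPM to 80.6, 76.7 and 80.3 CPM. All 4 were separate between treatments. IL6 rose but stayed low, at 1.18, 1.15 and 1.68 CPM in DMSO and 3.15, 3.75 and 3.99 CPM in doxorubicin (log2 fold change 1.44, SE 0.21). CCL2, which draws monocytes, and IL18, of the IL1 family, did not pass (log2 -0.39, SE 0.18 and log2 -0.19, SE 0.19), and IL15, which sustains natural killer cells, fell by 0.87 log2 units. Without replicate 1 of the DMSO group CCL2 passed as lower (log2 -0.55, edgeR adjusted p = 0.0263). PTPRC, the marker of leukocytes, had 27, 56 and 34 counts in DMSO and 18, 18 and 17 in doxorubicin, and did not pass. TNF had 2 to 8 counts in a library and was not tested.

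Of the NF-kB subunits and their feedback genes, 15 of 29 rose and 2 fell (median 0.51). The number that fell was 0 or 1 when any 1 library other than replicate 2 of intact doxorubicin was left out. TNFAIP3, the ubiquitin-editing brake A20, was at 33.1, 31.4 and 34.7 CPM in DMSO and 166, 163 and 169 CPM in doxorubicin (log2 fold change 2.33, SE 0.10), and TRAF1, an adaptor of the TNF receptors, went from 1.38, 1.11 and 1.92 CPM to 23.95, 24.01 and 22.03 CPM. TNIP1, a partner of A20, and ICAM1, an adhesion molecule, had log2 fold changes of 1.21 (SE 0.08) and 1.34 (SE 0.09). The subunit RELA (log2 -0.10, SE 0.08) and the mitochondrial dismutase SOD2 (log2 0.07, SE 0.08) did not pass, and their libraries overlapped. The NF-kB letters, GGGA, any base and TTTCC on either strand, were in 5 of 26 windows of this list, 5 of 23 of chemokines and cytokines and 0.548% of all windows. They are shown in capitals before TNFAIP3 (chr6:137867157-137867236, plus strand) and IL6 (chr7:22727092-22727171, plus strand).
TNFAIP3: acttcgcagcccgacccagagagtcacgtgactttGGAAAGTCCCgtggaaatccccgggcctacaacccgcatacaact
IL6: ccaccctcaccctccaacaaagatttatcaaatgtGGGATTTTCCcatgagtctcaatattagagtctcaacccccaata

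Of 33 AP-1 and immediate-early factors tested 27 rose and 1 fell, with a median of 1.01. ATF3, a stress-induced repressor, was at 10.2, 8.08 and 9.27 CPM in DMSO and 157, 157 and 157 CPM in doxorubicin (log2 fold change 4.10, SE 0.11). EGR2, a zinc finger factor, went from 0.725, 1.06 and 0.985 CPM to 24.1, 28.7 and 27.8 CPM and JUN, the core of AP-1, from 108, 102.9 and 115 CPM to 263, 260.4 and 255.4 CPM. BHLHE40, a repressor tied to the clock and to hypoxia, rose by 2.12 log2 units. FOSL1, which was abundant and missed the threshold, overlapped at 406, 656 and 418 CPM in DMSO and 431, 479 and 461 CPM in doxorubicin. The number of factors that fell was 0 without replicate 3 of DMSO, or replicate 2 or 3 of doxorubicin.

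Other genes of cell death rose in 18 of 40 tested and fell in 4. NLRP1, an inflammasome sensor, went from 19.1, 18.6 and 22.2 CPM to 77.8, 90.7 and 86.8 CPM and CASP10, a caspase of death receptors, from 4.23, 3.77 and 4.21 CPM to 15.3, 15.1 and 14.5 CPM. The executioner CASP6 and the pore protein GSDME had log2 fold changes of 1.08 (SE 0.09) and 1.02 (SE 0.09). BIRC5, survivin, which also acts at the mitotic spindle, fell from 189, 160.1 and 195 CPM to 101.5, 101.8 and 96.7 CPM, and BCL2, which blocks the mitochondrial route, from 13.7, 11.05 and 11.01 CPM to 7.50, 8.21 and 7.48 CPM. The death receptor TNFRSF21 fell by 0.65 log2 units. Cytochrome c (CYCS) and XIAP, the caspase inhibitor, did not pass (log2 0.16, SE 0.10 and log2 0.09, SE 0.11).

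The list of senescence-linked secreted factors and lamina genes was mixed: 7 of 38 tested rose and 13 fell. GDF15, a secreted stress hormone and p53 target, was at 5.61, 3.61 and 6.08 CPM in DMSO and 134, 144 and 144 CPM in doxorubicin (log2 fold change 4.78, SE 0.19). AREG, a ligand of EGFR, went from 5.03, 7.62 and 5.57 CPM to 63.8, 67.5 and 59.6 CPM, PLAT, the tissue plasminogen activator, from 30.7, 26.8 and 32.8 CPM to 115, 112 and 118 CPM and HBEGF, another EGFR ligand, from 18.7, 20.4 and 19.4 CPM to 42.1, 41.7 and 42.7 CPM. All 4 were above DMSO in every treated library. LMNB1, the lamin whose loss is used as a mark of senescence, was at 216, 235 and 205 CPM in DMSO and 173, 178 and 171 CPM in doxorubicin (log2 fold change -0.33, SE 0.08). LMNA did not pass (log2 -0.19, SE 0.14); without replicate 2 of the DMSO group it passed, with a log2 fold change of -0.37 (edgeR adjusted p = 0.0142).

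A larger share of very long genes fell than of shorter ones. Of 579 protein-coding genes that span over 300 kb 34.9% fell (exact binomial 95% interval 31.0% to 38.9%, which counts genes as if independent) and 15.9% rose, with a median of -0.19. In the shorter classes 12.1% to 17.8% fell and 18.01% to 22.4% rose: 12.5% fell under 10 kb, 12.1% at 10 to 30 kb, 13.1% at 30 to 100 kb and 17.8% at 100 to 300 kb. Over all biotypes 32.4% of 661 genes over 300 kb fell and 15.4% rose, and falls of at least 2-fold made up 14.4%, against 2.21% to 5.80% in the other classes. Among genes of at least 5 CPM the share that fell over 300 kb was 41.6% of 356. Over all biotypes the 32.4% was 27.1% without replicate 1 of the doxorubicin group or without replicate 2 of it, and 30.3% without replicate 2 of the DMSO group. With exon length in place of span, 14.9% of the fifth of genes with the longest exons fell, against 10.1% to 14.1% in the other classes of equal size. At 170 nM in the labelled intact cells the median of the 661 genes was -0.04.

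The contrast was also formed within each library, as the mean log2(CPM + 1) of genes over 300 kb less that of genes under 30 kb. The cut set in the design was 100 kb, and the cut of 300 kb was added to it. It was 0.570, 0.697 and 0.484 in DMSO and 0.367, 0.369 and 0.423 in doxorubicin. The 3 treated libraries were the lowest, which 3 against 3 can show at best with p = 0.1 by the exact two-sided permutation test, the value found. The contrast of the design, for genes over 100 kb, overlapped (exact permutation p = 0.8, and 0.5 among genes of at least 5 CPM). Over all genes with a span, span ran with the log2 fold change at Spearman rho 0.11. The rho was -0.03 over protein-coding genes and -0.15 over genes above 100 kb, so the falls were no general trend with span.

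**Figure D4:**
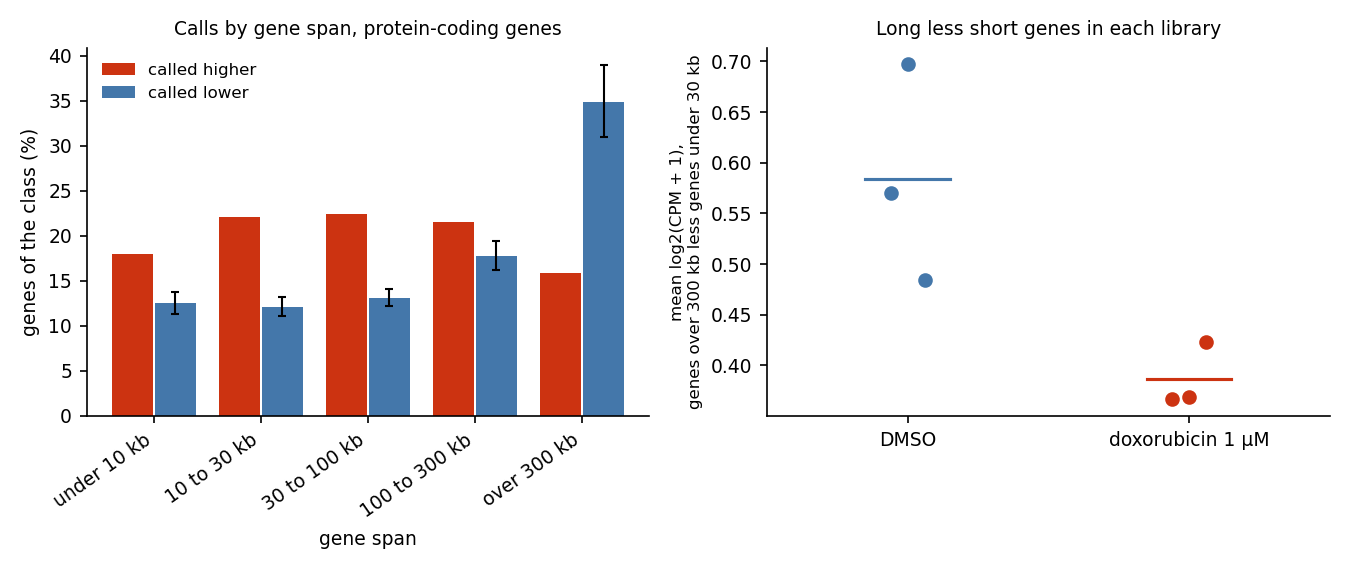
Left, share of protein-coding genes called higher or lower in classes of annotated span, in %, with exact binomial 95% intervals for the share called lower; right, the difference of mean log2(CPM + 1) between genes over 300 kb and genes under 30 kb in each library, with the group mean as a line, on an axis that does not start at 0. The class over 300 kb has 34.9% lower against at most 17.8% elsewhere, and the treated libraries lie between 0.367 and 0.423, below the DMSO libraries. The contrast set in the design, for genes over 100 kb, overlapped between the treatments and is not drawn.

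Many of the largest falls were of such genes. GPC6, a glypican that spans 1181 kb (ENSG00000183098.11, chromosome 13, 93226842 to 94407401, hg38), was at 14.4, 18.4 and 13.3 CPM in DMSO and 1.69, 1.65 and 1.74 CPM in doxorubicin (log2 fold change -3.18, SE 0.21). CDH4, retinal cadherin, an adhesion molecule of 688 kb (ENSG00000179242.16, chromosome 20, 61252426 to 61940617), was at 128, 94.6 and 116 CPM in DMSO and 15.5, 15.5 and 17.6 CPM in doxorubicin (log2 fold change -2.80, SE 0.12). SEMA3A, a repellent of growing axons (537 kb), went from 54.9, 75.5 and 52.8 CPM to 12.7, 12.6 and 13.2 CPM, and EPHB1, an ephrin receptor (663 kb), from 9.03, 8.82 and 9.80 CPM to 2.15, 1.76 and 1.96 CPM. Each was lower in all 3 treated libraries, which was a condition for being named among the largest falls and adds no support. The same held for the potassium channel KCNMA1 (769 kb, log2 -2.10, SE 0.09), the oxidase ENOX1 (573 kb, log2 -2.84, SE 0.18) and the membrane adaptor ANK2 (566 kb, log2 -2.04, SE 0.19). BCAT1, which breaks down branched amino acids (139 kb), and the adenylate kinase AK5 (278 kb) had log2 fold changes of -2.75 (SE 0.18) and -2.31 (SE 0.16). The largest falls also took in shorter genes, among them RGS4, which damps G protein signals (8 kb, log2 -2.30, SE 0.12), the granule protein SCG2 (6 kb, log2 -2.17, SE 0.13) and SLITRK5, a synaptic adhesion molecule (24 kb, log2 -2.20, SE 0.21).

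Cadherins and axon guidance genes, which steer neurites and cell contacts, are often long. Of 55 listed 44 were tested, and 11 rose and 19 fell. The 17 members of at least 300 kb had 1 rise and 11 falls with a median of -1.30, and the 27 shorter ones 10 rises and 8 falls with a median of 0.41. NTN1, netrin, a guidance cue, rose from 11.5, 7.06 and 10.4 CPM to 81.96, 69.3 and 84.2 CPM, the cadherin CDH10 from 16.7, 21.6 and 16.4 CPM to 73.5, 71.3 and 75.8 CPM and the coreceptor NRP2 from 8.50, 8.42 and 7.06 CPM to 17.8, 16.8 and 16.9 CPM. PCDH10, a protocadherin, fell from 29.95, 29.8 and 28.4 CPM to 9.14, 10.4 and 9.92 CPM. Very long genes also occur among the largest rises: TENM4, a teneurin, went from 0.118, 0.163 and 0.177 CPM to 4.98, 5.79 and 6.26 CPM.

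Genes of the extracellular matrix went in both directions. Of 31 collagen chains tested 12 rose and 8 fell. COL7A1, the anchoring fibril of basement membranes, was at 55.9, 31.5 and 63.3 CPM in DMSO and 248, 389.8 and 315 CPM in doxorubicin (log2 fold change 2.66, SE 0.23), and COL27A1, a fibrillar chain of cartilage, went from 11.1, 9.64 and 11.8 CPM to 65.3, 81.4 and 76.5 CPM. COL17A1, a transmembrane collagen of hemidesmosomes, rose by 2.21 log2 units. Against these, COL1A1, the main fibrillar chain of connective tissue, was at 1460.1, 1203 and 1328 CPM in DMSO and 684, 669.9 and 639 CPM in doxorubicin (log2 fold change -1.002, SE 0.09). COL8A1 and COL6A3, a network chain and a microfibril chain, fell by 1.60 log2 units and 1.56 log2 units. LOX, which crosslinks collagen, went from 13.2, 18.4 and 12.9 CPM to 4.02, 3.79 and 4.41 CPM, SPARC, which binds collagen and calcium, from 927, 930.3 and 919.7 CPM to 480.4, 456 and 473 CPM, and the laminin chain LAMB1 from 162, 167 and 159 CPM to 75.4, 76.6 and 75.3 CPM. In all of these genes the treatments did not overlap. FN1, fibronectin, did overlap, at 1605, 1609.9 and 1365 CPM in DMSO and 1349.7, 1309 and 1385 CPM in doxorubicin (log2 fold change -0.18, SE 0.10). The list of laminins, glycoproteins and integrins had 15 of 47 higher and 12 lower, with 9 higher without replicate 1 of the doxorubicin group. Metalloproteinases had 6 of 26 higher and 5 lower, with 3 higher when any 1 of replicates 1 and 3 of DMSO or replicates 1, 2 and 3 of doxorubicin was left out. MMP16, a membrane-bound member, went from 36.9, 43.5 and 33.5 CPM to 11.96, 10.8 and 13.04 CPM.

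Contractile genes had 5 of 29 higher, near the 17.5% over all genes tested, and 7 lower. ACTA2, smooth muscle actin, rose from 10.9, 12.2 and 11.8 CPM to 46.2, 41.6 and 45.7 CPM, CNN1, calponin, from 1.45, 0.801 and 1.24 CPM to 5.45, 5.43 and 5.61 CPM and SMTN, smoothelin, from 59.9, 48.4 and 59.1 CPM to 107, 110 and 111 CPM, without overlap. The filamin FLNA did not pass (log2 -0.08, SE 0.17), but fell without replicate 2 of the DMSO group (log2 -0.31, edgeR adjusted p = 0.0496). Of 44 targets of YAP and members of the TGF-beta pathway 10 rose and 8 fell. AMOTL1, which binds YAP, went from 77.8, 77.8 and 68.1 CPM to 238, 239 and 252 CPM. The inhibitory SMAD6 went from 48.9, 34.6 and 50.1 CPM to 9.12, 8.41 and 10.1 CPM, the BMP antagonist NOG from 4.65, 4.21 and 4.70 CPM to 1.20, 0.753 and 1.27 CPM and the ligand BMP4 from 11.99, 13.4 and 13.2 CPM to 4.67, 6.08 and 4.61 CPM. SMAD6, NOG and BMP4 were each lower in all treated libraries.

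In the Notch, Wnt and Hedgehog list 10 of 47 tested rose and 13 fell. The Notch ligand JAG1 was at 15.8, 19.1 and 18.2 CPM in DMSO and 59.3, 61.9 and 62.9 CPM in doxorubicin (log2 fold change 1.79, SE 0.11), and the receptor NOTCH1 went from 85.7, 61.6 and 81.8 CPM to 169, 157 and 171 CPM. The ligands WNT9A and WNT4 went from 1.23, 0.787 and 0.783 CPM to 16.2, 15.4 and 14.2 CPM and from 0.266, 0.380 and 0.556 CPM to 9.98, 10.2 and 9.60 CPM. SFRP1, which sequesters Wnt ligands, fell from 231, 237 and 218 CPM to 99.1, 91.5 and 97.6 CPM, and GLI2, a factor of Hedgehog signals, from 61.02, 51.01 and 57.2 CPM to 26.4, 24.3 and 29.2 CPM. Treated and untreated libraries were separate in all 6. DKK1, a secreted Wnt inhibitor, did not pass (log2 0.06, SE 0.08). Of 38 receptor tyrosine kinases 11 rose and 7 fell: IGF1R went from 81.01, 81.5 and 78.9 CPM to 158, 148 and 162 CPM, while EGFR (log2 -0.19, SE 0.11) and MET (log2 -0.08, SE 0.09) did not pass.

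More genes of chaperones and of ribosome biogenesis fell than rose. Of 31 chaperones of the endoplasmic reticulum and heat shock proteins 16 fell and 4 rose, and the list's sum went from 15231 to 11530 CPM on average. HSPA8, the constitutive HSP70, was at 1970.4, 2637 and 2076 CPM in DMSO and 1067, 1126 and 1087 CPM in doxorubicin (log2 fold change -1.03, SE 0.11). The 3 members named by the rule among those that rose were ERN1, the stress sensor IRE1 (log2 1.83, SE 0.12), HSPB8, a small chaperone of autophagy (log2 1.38, SE 0.13), and EDEM1, of the decay of misfolded glycoproteins (log2 0.82, SE 0.09). Of 50 genes of ribosome biogenesis and RNA polymerase I 18 fell and 2 rose, and 28 fell with the trend with GC content removed. The number that rose was 1 without replicate 3 of DMSO, any doxorubicin library of the deleted cells, or replicate 1 or 2 of intact DMSO. WDR12 and HEATR1, of large and small subunit assembly, fell from 64.9, 75.2 and 60.9 CPM to 38.3, 36.6 and 37.1 CPM and from 169.9, 174 and 153 CPM to 115, 110 and 117 CPM. POLR1E, a subunit of RNA polymerase I, rose by 0.44 log2 units. Of 76 cytosolic ribosomal protein genes 8 fell and 0 rose. That count ran from 1 without replicate 3 of the doxorubicin group to 18 without replicate 2 of the intact doxorubicin group. It was 5 without replicate 1 of either group of deleted cells, 4 without replicate 2 of doxorubicin and 3 without replicate 3 of DMSO. These genes share reads with pseudogenes and are uncertain. POLR2A, the large subunit of RNA polymerase II and a gene of 17p, was at 543, 780.3 and 483 CPM in DMSO and 719.6, 725 and 770.5 CPM in doxorubicin and did not pass (log2 fold change 0.29, SE 0.16). It passed without replicate 2 of the DMSO group, its highest library (log2 0.51, edgeR adjusted p = 0.00538).

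Metabolic and stress lists were mixed. Of 23 genes of the integrated stress response 7 rose and 7 fell, with DDIT3, the factor CHOP, at 13.3, 13.3 and 15.2 CPM in DMSO and 32.9, 31.9 and 31.5 CPM in doxorubicin and PSAT1, of serine synthesis, at 274, 224 and 239 CPM in DMSO and 130.2, 117 and 122 CPM in doxorubicin. The number that fell was 4 when any 1 library was left out among replicates 1 and 3 of deleted DMSO, the 3 of deleted doxorubicin and the 3 of intact DMSO. SLC7A11, the cystine importer that p53 is known to repress, went from 115, 128 and 84.6 CPM to 52.7, 51.1 and 55.6 CPM. Of 34 genes of glycolysis and hypoxia 9 rose and 4 fell, but 6 rose and 11 fell without replicate 2 of the DMSO group, and 7 fell without replicate 2 of the intact doxorubicin group. LDHA, which makes lactate, was at 1004, 1046 and 989.7 CPM in DMSO and 649.6, 635 and 639 CPM in doxorubicin (log2 fold change -0.66, SE 0.07), HK2, hexokinase, at 74.5, 59.05 and 69.1 CPM in DMSO and 42.9, 44.4 and 43.1 CPM in doxorubicin, and NDRG1, a stress-induced protein, at 15.7, 13.99 and 14.4 CPM in DMSO and 46.7, 44.3 and 43.6 CPM in doxorubicin. Of 36 NRF2, iron and ferroptosis genes 6 rose and 3 fell, shares below those over all genes. The number lower was 1 without replicate 1 or 2 of the doxorubicin group and 6 with the GC trend removed. AKR1B10, an aldo-keto reductase, went from 0.710, 0.299 and 0.467 CPM to 10.2, 10.3 and 10.5 CPM and SAT1, which breaks down polyamines, from 18.2, 21.5 and 19.7 CPM to 107, 135 and 116 CPM, while the thioredoxin reductase TXNRD1 fell from 736, 791 and 718 CPM to 399, 394 and 392 CPM.

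Efflux pumps, which can carry doxorubicin out of cells, were measured as well. ABCB1, the pump best known for it, was not tested, with 4, 5 and 0 counts in DMSO and 2, 6 and 0 in doxorubicin. ABCC1 was at 140.2, 106 and 131 CPM in DMSO and 137, 129.6 and 139 CPM in doxorubicin and did not pass (log2 fold change 0.11, SE 0.11, edgeR adjusted p = 0.494). ABCC4 fell from 55.5, 57.04 and 51.9 CPM to 33.9, 34.2 and 35.7 CPM, and ABCB6, a porphyrin transporter, rose from 0.755, 0.774 and 1.38 CPM to 2.52, 3.36 and 2.87 CPM. Of 18 transporters tested 4 rose and 1 fell, with 2 higher without replicate 1 of the doxorubicin group and 2 lower without replicate 2 of DMSO.

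Among long noncoding RNAs 8 of 36 tested rose and 6 fell, with 3 lower without replicate 1 or without replicate 3 of the doxorubicin group. H19, an imprinted RNA of fetal tissue, was at 1.18, 1.57 and 0.733 CPM in DMSO and 69.5, 85.3 and 81.7 CPM in doxorubicin (log2 fold change 6.09, SE 0.27). IGF2, its neighbour in the imprinted cluster, went from 0.636, 0.828 and 0.240 CPM to 2.02, 1.80 and 2.16 CPM. PURPL, a p53-induced RNA, went from 1.26, 2.01 and 1.63 CPM to 32.6, 40.6 and 39.2 CPM, and MIR34AHG, the host gene of the p53-induced miR-34a, from 1.17, 1.14 and 1.34 CPM to 11.6, 16.5 and 14.1 CPM. NEAT1, the scaffold of paraspeckles, was at 183, 251 and 306 CPM in DMSO and 342, 583 and 433 CPM in doxorubicin (log2 fold change 0.87, SE 0.26), and did not pass without replicate 1 of DMSO (log2 0.70, edgeR adjusted p = 0.0865) or replicate 2 of doxorubicin (log2 0.65, edgeR adjusted p = 0.107). MALAT1, of nuclear speckles, varied as much within groups as between them, at 1365, 2432 and 1754 CPM in DMSO and 1518, 2647 and 1843 CPM in doxorubicin. Of 17 imprinted genes tested 3 rose and 3 fell, with 1 higher without replicate 1 of DMSO, or replicate 2 or 3 of doxorubicin.

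The response at 1 µM differed from that of the labelled intact cells at 170 nM for 3705 genes by a test of the difference of effects in the same fit: 2235 were higher (10.3%) and 1470 lower (6.74%). Higher effects made up 60.3% of these calls, 71.3% with library totals in place of TMM factors, 52.0% with the trend with GC content removed and 52.3% without replicate 2 of the intact doxorubicin group. At 170 nM 6 genes rose and 7 fell, and 12 genes were called in both effects. Both effects come from separate libraries. Genotype, dose and any other difference between the cell populations change together in this comparison.

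Of the p53 targets 42 of 48 in the arrest, repair and death lists had a higher effect at 1 µM and 0 a lower one. Their medians at 170 nM were 0.11, 0.04 and 0.00. CDKN1A had a log2 fold change of 0.21 at 170 nM, 3.87 (SE 0.25) below that at 1 µM, and MDM2 one of 0.09, 3.34 (SE 0.20) below. The medians of mitotic genes lay on opposite sides of 0. Those of mitotic kinases and spindle genes were 0.32 and 0.34 at 170 nM against -0.55 and -0.46 at 1 µM. At 170 nM neither PLK1 (edgeR adjusted p = 0.0869) nor TOP2A (edgeR adjusted p = 0.0588) passed. The log2 fold changes at 170 nM and 1 µM were 0.40 and -2.20 for PLK1 (difference log2 -2.59, SE 0.12) and 0.52 and -0.63 for TOP2A (difference log2 -1.15, SE 0.13). The difference was lower in 16 of 26 mitotic kinases and 29 of 42 spindle genes, and higher in 1 of each.

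The medians of the interferon-stimulated genes were above 0 in both, 0.32 at 170 nM and 0.95 at 1 µM. For 24 of 49 the effect was higher at 1 µM, and for 1 lower. OAS2, which passed in both, had log2 fold changes of 0.71 and 3.07 (difference log2 2.35, SE 0.15). NF-kB, cytokine and AP-1 genes had medians of 0.05, -0.15 and 0.04 at 170 nM, and the effect was higher at 1 µM in 15, 16 and 23 members and lower in 0. CDH4, which did not pass at 170 nM, had log2 fold changes of -0.66 and -2.80 (difference log2 -2.14, SE 0.16).

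**Figure D5:**
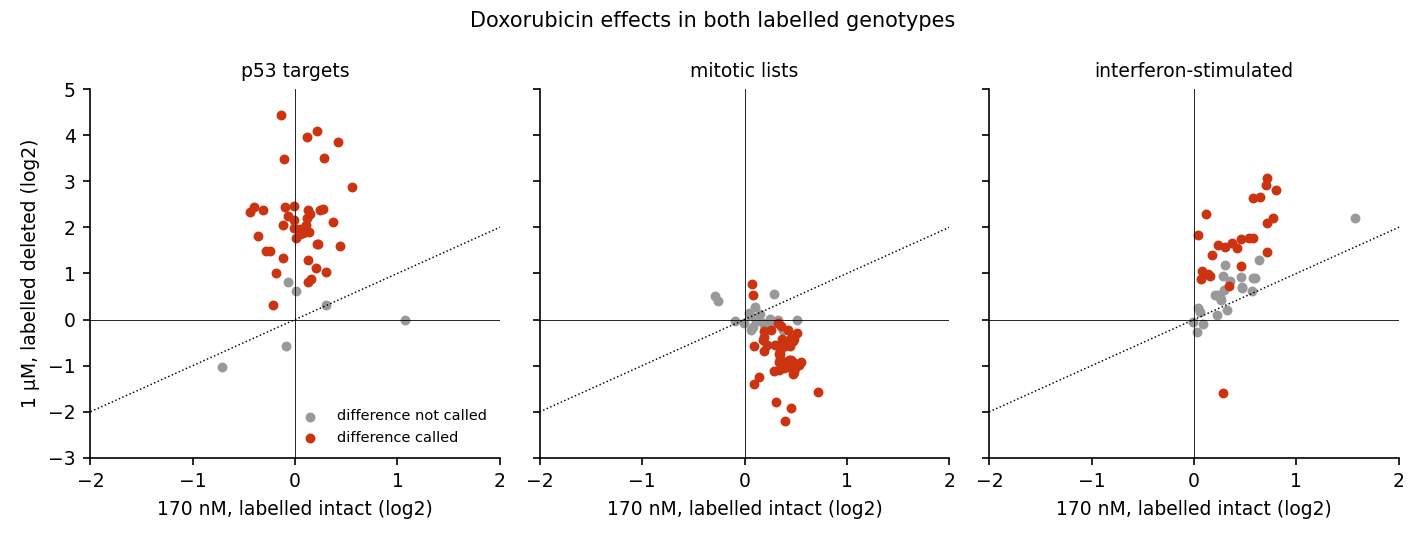
Log2 fold change at 1 µM in cells labelled 17p-deleted (vertical) against that at 170 nM in cells labelled 17p-intact (horizontal) for the p53 arrest, repair and death targets, the 2 mitotic lists and the interferon-stimulated list; red points have a called difference of effects, and the dotted line marks equal effects. The p53 targets spread upwards over a narrow horizontal range, the mitotic genes lie mostly right of and below 0, and the interferon-stimulated genes mostly above the dotted line.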

How the data were processed

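The authors deposited raw read counts per gene, whole numbers in 1 column per library. Per the labels' protocols, total RNA was extracted with TRIzol and miRNeasy columns and made into KAPA RNA Hyper Prep libraries, read in pairs on a NovaSeq instrument. Per the submitters' processing notes, the tools were bcl2fastq, STAR 2.7.9a and featureCounts of Subread 2.0.1, on hg38. Not given in the sources used here were the annotation, the strand setting of the counting and the selection of RNA, so genes with an antisense or overlapping partner or near-identical copies are uncertain.

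The edgeR (4.0.16, R 4.3.3) function filterByExpr chose the genes, TMM factors (trimmed mean of M values) scaled the libraries, and the quasi-likelihood F test was run on 12 libraries in 4 groups, without a replicate block. P-values were adjusted by Benjamini-Hochberg over 21803 genes, with a threshold of 0.05. The SE is the log2 fold change divided by the root of F. CPM of single genes are counts per 1e6 of the library size scaled by its TMM factor. Sums over a list are counts per 1e6 of the library total. Symbols, spans and positions come from GENCODE 29 (hg38), which held 58385 of the 60660 identifiers, and promoter windows from RefSeq (GRCh38.p14). At 66150539 to 92932596 counts, 3 counts stand for 0.0323 to 0.0454 CPM, which covers counting error only. Pairs of libraries within groups differed by more than sampling noise (chi-square per degree of freedom 8.42 to 204).

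The 49 gene lists, 4 of them markers of cell types, are described by counts and medians, with no test of a list. The comparison and the lists were chosen with earlier results of these data known. Named genes were, from each list, up to 4 members with the lowest p, up to 3 called against the list's majority and the 2 most abundant that did not pass; the 15 largest and 15 smallest changes without overlap and with at least 5 CPM; the 10 largest rises and falls in CPM; and a fixed set. Not all are named, some are not reported here, and genes outside the rule are marked. On simulated counts with 200 changed genes, drawn for the 1 µM comparison over 21803 genes, the fit recovered 59% of 2-fold and 81% of 4-fold changes, with 12 false calls among 152. The simulation held no trend with GC content and far fewer changed genes than were called here. Its rates need not hold for these data.

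The alternatives were RLE size factors or library totals as the scaling, no filter or 1 CPM in 3 libraries, DESeq2 1.42.0, limma-voom (limma 3.58.1), a fit of the 6 libraries alone, blocking on the replicate number, asking also for a 2-fold change, removal of each library's trend with GC content (loess, span 0.5) and leaving out each library. A few genes are not reported here.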

Additional observations from a re-analysis of the deposited data

Results flagged for a closer look

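The effect of doxorubicin differed between the labelled genotypes, by the interaction term in edgeR, for 3705 of 21803 genes (17%). Genotype, dose and cell population change together between the effects, 1 µM in deleted and 170 nM in intact cells, and cannot be told apart. Below, the number of members whose effect differed, in either direction, is given out of the members tested. These counts are to be read against the 17% over all genes, and several lists lie at or below it.

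In the p53 lists it was 16 of 17 arrest genes and 11 of 15 repair and metabolism genes. Of their other members it was 15 of 16 cell death genes and 4 of 9 feedback genes. In the cell cycle it was 17 of 26 mitotic kinases and cyclins, 30 of 42 spindle genes and 6 of 23 condensation genes. Around S phase it was 10 of 49 replication genes, 9 of 28 nucleotide supply genes and 18 of 54 histone genes. At the G1/S switch it was 10 of 28. In repair it was 7 of 37 of homologous recombination, 3 of 27 of end joining and 2 of 31 of excision and translesion.

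In immunity it was 25 of 49 interferon-stimulated genes, 11 of 33 interferons and their factors and 7 of 29 of antigen presentation. In inflammation it was 16 of 33 cytokines, 15 of 29 NF-kB genes and 23 of 33 AP-1 genes. In death and senescence it was 13 of 40 cell death genes and 16 of 38 senescence-linked genes. In the matrix it was 5 of 26 metalloproteinases, 17 of 31 collagens and 19 of 47 laminins, glycoproteins and integrins. Among contractile genes it was 5 of 29 and among YAP and TGF-beta genes 12 of 44. At the cell surface it was 21 of 47 of Notch, Wnt and Hedgehog and 9 of 38 receptor tyrosine kinases. Among cadherins and guidance genes it was 30 of 44.

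In metabolism it was 9 of 34 of lipid synthesis, 8 of 34 of glycolysis and 4 of 71 of the respiratory chain. In stress it was 10 of 23 stress response genes, 14 of 31 chaperones and 8 of 36 NRF2 and iron genes. Among transporters it was 3 of 18 and among lysosomal genes 7 of 44. In protein supply it was 12 of 50 of ribosome biogenesis and 1 of 76 ribosomal protein genes. In the nucleus it was 9 of 53 transcription and splicing genes and 13 of 64 chromatin genes. Among long noncoding RNAs it was 7 of 36 and among imprinted genes 3 of 17.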

How the results depend on the processing

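The numbers of genes that rose (3822), fell (2862) and had a different effect (3705) stayed within 1.5 times under every alternative run except a 2-fold change as well, which left 1984, 937 and 1984. Leaving out 1 library gave 3120 to 4169, 2061 to 3354 and 2700 to 4596 genes; replicate 3 of the deleted doxorubicin group gave the lowest and replicate 2 of the intact doxorubicin group the highest of each. Of the 6684 calls DESeq2 shared 98.1%, limma-voom 96.9%, the fit of the 6 libraries alone 86.8% and fits without 1 library 75.8% to 99.1%. With the replicate number as a block 3473 genes rose, 2423 fell and 2913 had a different effect; same-numbered libraries deviated together with r of only 0.059, 0.018 and 0.014, so the numbers were not taken to pair them. Rises made up 57.2% of the calls, 61.0% with library totals and 52.7% with the GC trend removed. For the difference of effects the higher share was 60.3%, 71.3% with library totals, 52.0% with the GC trend removed and 52.3% without replicate 2 of the intact doxorubicin group. Library totals moved the median difference of effects from -0.03 to 0.08; without filter the median was 0.13 and with DESeq2 0.10. Of 206 named genes that were called 191 kept the call under each of up to 21 alternatives and 15 lost it under 1 or more. Of the named genes not called, 17 gained a call. Of the named genes, 11, all not called, had values on both sides of 0 (WSB1, TOP1, PRKDC, CALR, IL18, FOSL1, FLNA, MET, ABCC1, MALAT1 and KRT8). No called value changed sign. With the GC trend removed, falls went from 3 to 5 in replication, 4 to 8 in nucleotide and base excision, 7 to 11 in receptor tyrosine kinases, 4 to 12 in glycolysis and hypoxia and 1 to 4 in transporters, and rises from 3 to 8 in end joining and 1 to 3 in condensation and cohesion; the cause was not tested. Limits: there are 3 libraries a group, and the labels do not state separate cultures. In the fit 1 DMSO library stands apart, and 1 intact doxorubicin library had a raised mitochondrial share. No dose or genotype varies alone, and fold changes of genes near the floor depend on the prior count.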

Other observations

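Several genes of stratified epithelium rose from low levels. They were chosen after their values were seen and are given with no test of the group. The list of epithelial markers did not rise as a whole: of 18 tested 5 rose, 2 fell and 11 did not pass, with a median of 0.08. The number that rose was 3 without replicate 2 or 3 of the doxorubicin group. The number that fell was 1 without replicate 1 of DMSO, or replicate 1 or 2 of doxorubicin. DSC3, a desmosomal cadherin, went from 1.47, 1.79 and 1.23 CPM to 33.3, 37.4 and 32.9 CPM, and NECTIN4, an adhesion molecule of epithelia, from 4.47, 4.70 and 4.88 CPM to 115, 110.3 and 111 CPM. GRHL3, a factor of epidermal barrier formation, went from 0.888, 1.07 and 1.24 CPM to 28.97, 29.7 and 32.9 CPM. KRT15, a keratin of basal layers, went from 1.29, 0.937 and 1.49 CPM to 15.1, 17.2 and 16.7 CPM, and KRT19, a simple-epithelial keratin, from 0.370, 0.557 and 0.480 CPM to 1.16, 1.67 and 1.66 CPM. KRT5, the partner keratin of basal cells, had 0, 2 and 0 counts in DMSO and 65, 65 and 56 in doxorubicin. The parts of the hemidesmosome were uneven: the laminin chains LAMA3 and LAMB3 had log2 fold changes of 0.86 (SE 0.12) and 0.57 (SE 0.15). The integrin ITGB4 had one of 0.60 (SE 0.10), while the hemidesmosomal collagen COL17A1, given above, rose by more. Among the epithelial markers KRT8 overlapped at 362, 277 and 369.6 CPM in DMSO and 362, 366 and 361 CPM in doxorubicin and MUC1 fell from 9.47, 11.9 and 10.3 CPM to 5.43, 5.84 and 7.07 CPM. EPCAM, with 10, 8 and 8 counts in DMSO and 6, 9 and 6 in doxorubicin, was near the floor throughout.

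The mesenchymal markers went both ways. CDH2, N-cadherin, chosen after its values were seen, fell from 311, 416 and 289.6 CPM to 167, 172 and 175 CPM, while SNAI2, a factor of epithelial to mesenchymal transition, rose from 8.73, 15.8 and 9.33 CPM to 49.6, 63.3 and 55.2 CPM and the caveolae gene CAV1 from 226, 293 and 233 CPM to 583, 589.8 and 612 CPM. ITGAM, an integrin of myeloid cells, had 23, 37 and 31 counts in DMSO and 232, 407 and 361 in doxorubicin, while the leukocyte marker PTPRC had 27, 56 and 34 and then 18, 18 and 17.

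Among the largest rises, CFAP74, of the ciliary axoneme, went from 0.725, 0.394 and 0.379 CPM to 13.7, 18.2 and 17.03 CPM, DNAI3, a dynein chain, from 0.311, 0.611 and 0.429 CPM to 13.9, 13.7 and 15.04 CPM, and NHLH2, a neuronal factor, from 0.740, 0.570 and 0.303 CPM to 14.6, 16.3 and 14.7 CPM. FAM13C and KLHL30 went from 0.562, 0.475 and 0.354 CPM to 19.2, 17.1 and 20.1 CPM and from 1.24, 0.299 and 1.17 CPM to 26.7, 25.6 and 26.6 CPM.

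Small nuclear and nucleolar RNAs, which form the spliceosome and guide the modification of ribosomal RNA, were lower where they changed. Of 97 snoRNAs tested 20 fell and 0 rose by edgeR (median -0.61), and of 50 snRNAs 15 fell and 0 rose (median -0.76). Many lie within introns of other genes. Transcribed unprocessed pseudogenes rose in 69 of 317 and fell in 21 (median 0.29), while lincRNAs rose in 213 and fell in 217 of 1609. The 13 mitochondrially encoded mRNAs had a median of -0.55, and 0.12 without replicate 2 of the DMSO group, with 0 past the threshold either way in edgeR, and 4 lower without replicate 1 of the DMSO group and 10 lower with no filter.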
